A study of Homo sapiens with 13 samples.

Results

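The lysosome and autophagy genes of cultured human osteoblasts are described here, as a list of 41 genes taken by symbol from a table of read counts. The list holds 10 roles: lysosomal membrane proteins and a channel, cathepsins, glycosidases and a lipase, subunits of the proton pump, the MiT/TFE transcription factors, and, for autophagy, the genes of initiation, membrane supply, conjugation, the ATG8 family and 1 cargo receptor. All 41 symbols matched 1 of the 43836 genes in the table, and all 41 passed the filter on low counts, which 17092 genes passed in all.

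The cells were hFOB 1.19, a human line of immortalized osteoblasts from fetal bone, and their messenger RNA was sequenced, so a single line stands for the tissue. Positive controls (PC, 2 libraries) were grown with 10% fetal bovine serum (FBS) and negative controls (NC, 2 libraries) without it, both with DMSO, the solvent of the compounds. The other cells were starved of serum and treated at 1 µg/mL with resveratrol (RES, 3 libraries), with peonidin-3-glucoside (POG, 3 libraries) or with DEG (2 libraries). The labels did not spell out DEG, although delphinidin-3-glucoside was among the agents they list. A further DEG sample was not analysed here, and nothing in the labels says that the libraries of a group came from separate cultures, so the tests measure the spread between these libraries only.

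Lysosomes are acidified by a proton pump, the V-ATPase, and filled with hydrolases that break down proteins, glycans and lipids. In macroautophagy, a membrane grows around cytoplasmic cargo and closes into an autophagosome, which fuses with lysosomes. TFEB, TFE3 and MITF are transcription factors that bind a short palindromic motif in promoters of many lysosomal and autophagy genes, and are held in the cytoplasm by the kinase complex mTORC1 when nutrients and growth factors are plentiful.

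The libraries held from 38464619 to 51416358 counted reads, of which mitochondrial genes took from 3.03% to 3.91%. Levels are given as CPM, which are counts per 1000000 reads after TMM scaling of each library total. As a check of the labelled cell type, the summed CPM of 8 osteoblast markers ran from 4750 to 5520 and was carried by the collagen genes COL1A1 and COL1A2 and by SPARC, whereas the osteoblast factor SP7 was at most 0.148 CPM in any group mean. The summed CPM of 10 osteoclast and macrophage markers ran from 4.16 to 6.90. TYROBP, which marks myeloid cells, had 0 reads in every library, while CSF1R, the highest of the 10, was at 1.68 to 2.88 CPM in the group means. CD14 (0.527 to 1.40) and ACP5 (0.551 to 1.20) were near the osteoblast markers DLX5 (0.864 to 1.44) and BGLAP (0.912 to 1.60).

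The promoters of the list were examined for the motif because it is where MiT/TFE factors bind. RefSeq promoters on GRCh38.p14, which reach from 250 bases before to 50 bases after the start site, were matched for 34 of the 41 genes. The letters TCACGTG, read on either strand, were in 9 of the 34 promoters (26.5%), against 4.49% of the 27305 genes with a promoter and 7% of the 11712 tested genes with one. The shorter CACGTG, which every TCACGTG contains, was in the same 9 promoters, in 8.77% of all promoters and in 12.3% of those of tested genes. The longer palindrome with a G before TCACGTG and an AC after it was in the promoters of GAA and MCOLN1. It was in 0.421% of all promoters and in 0.82% of those of tested genes. The 9 genes were ATG14, ATG3, ATP6V0D1, CTSA, CTSD, GAA, LAMP1, MCOLN1 and NEU1. A match describes these letters in this window and is not a binding site. The motif is known from promoters of lysosomal and autophagy genes, so its higher share in a list of such genes is no independent result. Stretches around the motif are shown 5′ to 3′ on the strand of the gene for 5 of the 9 genes, those of the lysosomal membrane, the pump and the glycosidases, since they carry much of what follows, with the motif on either strand in capitals. They lie at chr19:7522570-7522623 (plus strand) for MCOLN1, chr13:113297198-113297229 (plus) for LAMP1, chr17:80101492-80101568 (plus) for GAA, chr6:31862930-31862960 (minus) for NEU1 and chr16:67481198-67481229 (minus) for ATP6V0D1, each upstream of the start site. The LAMP1 promoter held the motif at 6 places, and its stretch shows only the place that begins at base -29 from the start site.
MCOLN1: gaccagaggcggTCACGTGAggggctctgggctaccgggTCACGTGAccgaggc
LAMP1: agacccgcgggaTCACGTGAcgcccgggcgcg
GAA: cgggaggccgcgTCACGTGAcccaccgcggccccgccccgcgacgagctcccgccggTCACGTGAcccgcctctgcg
NEU1: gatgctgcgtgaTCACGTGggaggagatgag
ATP6V0D1: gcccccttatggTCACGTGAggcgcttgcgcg

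Transcript levels differed widely between the genes. Divided by the length of the canonical transcript in kilobases, the level in the negative controls was highest for SQSTM1, the receptor that links ubiquitinated cargo to the forming autophagosome, at 270 CPM per kb. It was 265 CPM per kb for CTSB (cathepsin B), 151 for LAMP1, a heavily glycosylated protein of the lysosomal membrane, and 147 for CTSZ. The lowest levels were 6.47 CPM per kb for CTSK, the collagen-degrading cathepsin best known from osteoclasts, and 0.700 for MITF. Among the MiT/TFE factors, TFE3 stood at 49.1 and TFEB at 9.11 CPM per kb. Of the ATG8 family, the ubiquitin-like proteins that are coupled to lipid in the autophagosome membrane, GABARAPL2 stood at 63.9, GABARAPL1 at 47.6, MAP1LC3B at 46.1, MAP1LC3A at 43.8 and GABARAP at 12.9 CPM per kb. The top 3 and bottom 2 places were the same when the merged length of all exons was used, but CTSZ moved from place 4 to place 22, so the order between them depends on the transcript assumed.

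**Figure D1:**
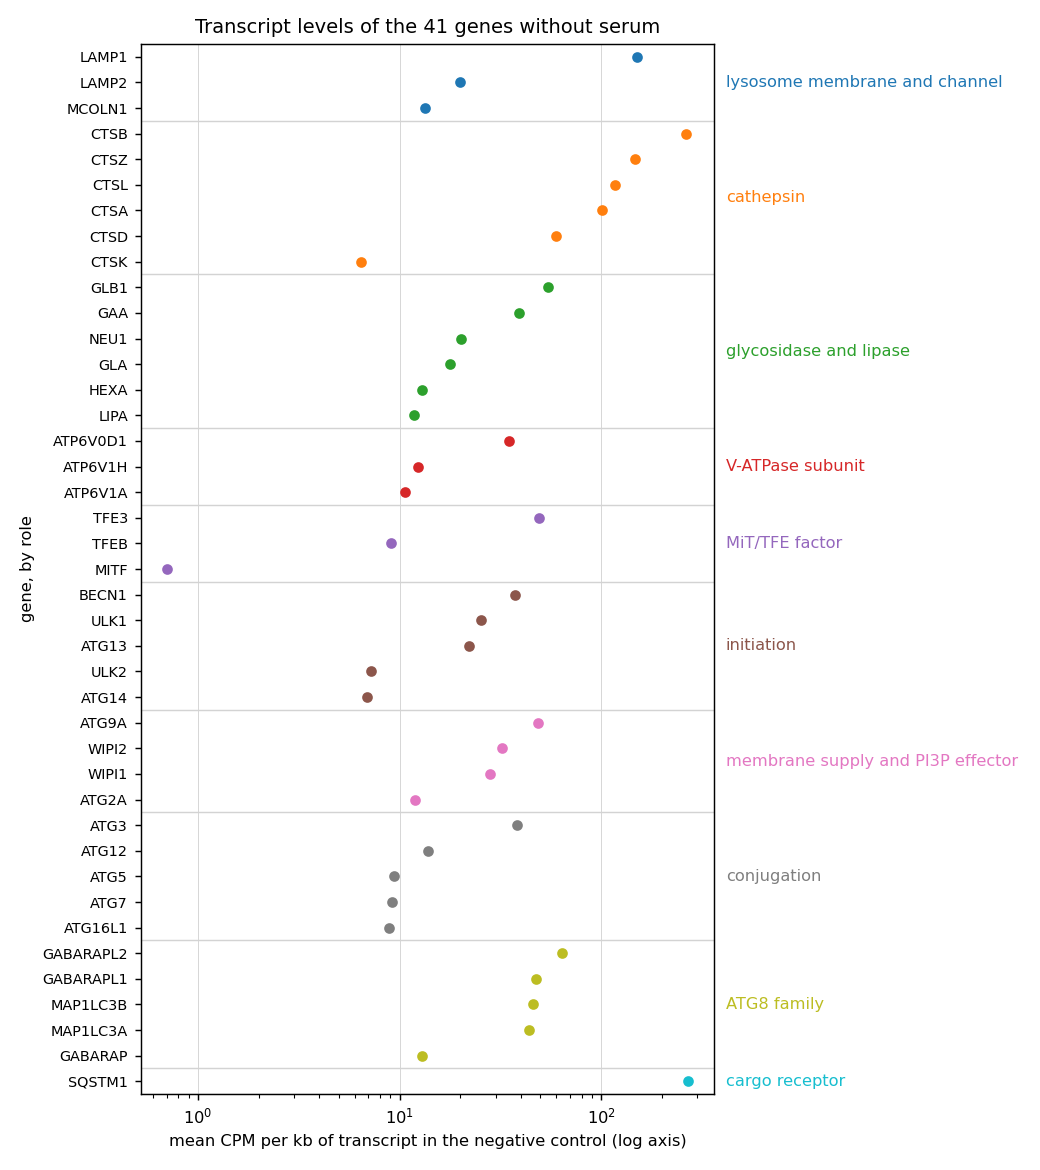
Mean level of each of the 41 genes in the 2 negative control libraries, in CPM per kb of canonical transcript on a log axis, with genes grouped by role and 1 point per gene. SQSTM1 (270), CTSB (265) and LAMP1 (151) stand highest and MITF (0.700) lowest.

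The genes varied little over the 12 libraries. The ratio of the highest to the lowest library had a median of 1.23 over the 41 genes, from 1.07 for BECN1, a subunit of the lipid kinase complex that starts autophagosome formation, to 1.72 for NEU1, the lysosomal sialidase. It was under 1.5 for 39 genes. The median standard deviation between libraries of a group ran from 1.58% of the mean in DEG to 4.24% in PC. Changes are given as log2 fold changes with their standard error (SE), and a gene is called changed when edgeR's exact test gave a false discovery rate (FDR) under 0.05 over all 17092 genes.

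**Figure D2:**
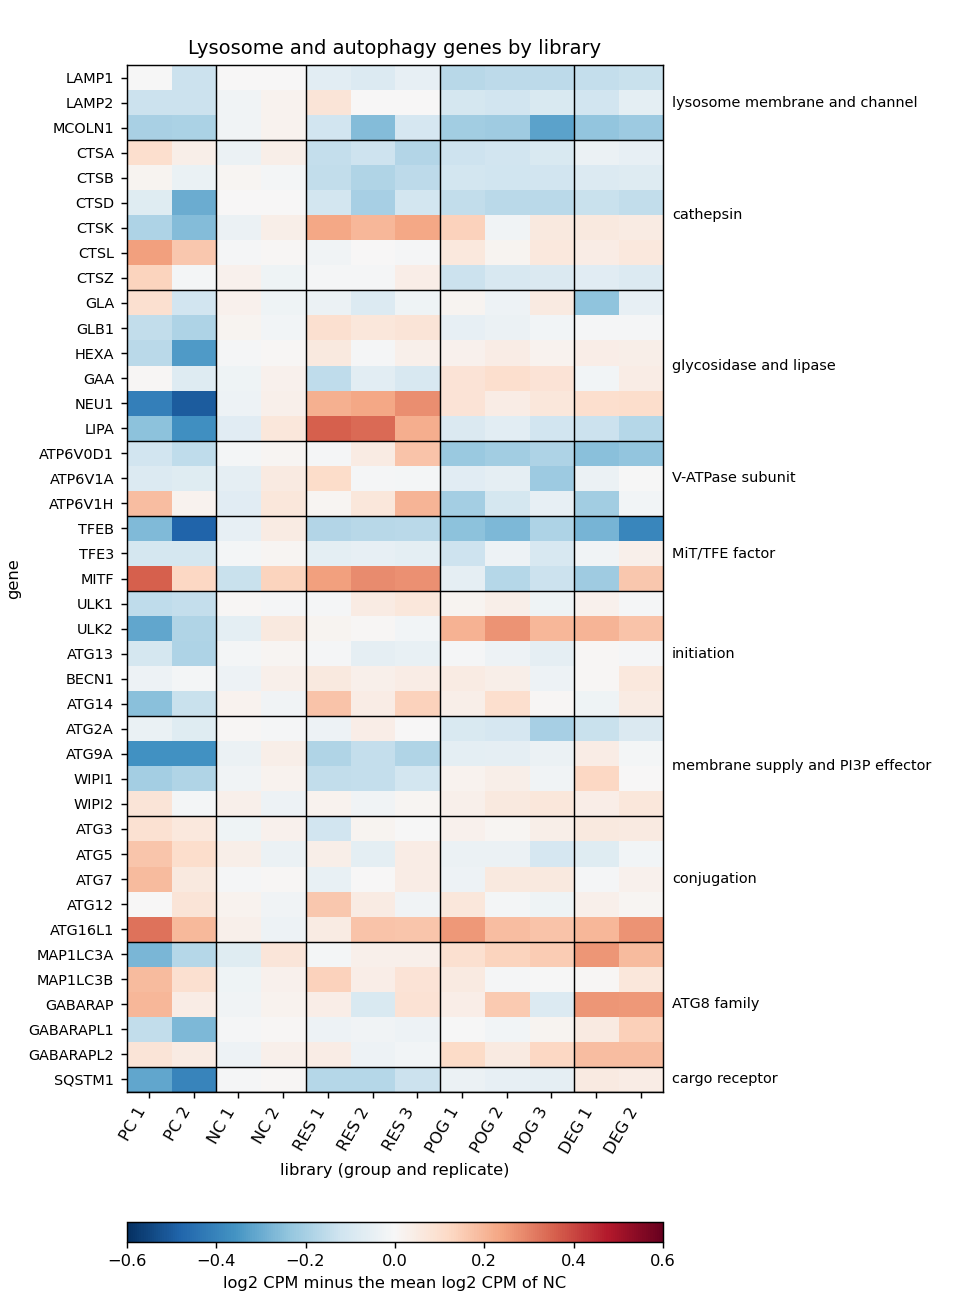
Log2 CPM of each of the 41 genes (rows, by role) in each of the 12 libraries (columns, by group) minus the mean log2 CPM of the 2 NC libraries, from blue (lower) to red (higher). The PC columns are blue for NEU1, ATG9A, SQSTM1 and TFEB, whose PC means were from 21.7% to 27.1% under NC, and the RES columns are red for NEU1 and LIPA.

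With serum, the list was mostly lower than without it. Of the 41 genes, 24 were called between PC and NC (58.5%), 4 of them higher and 20 lower with serum, where 42.4% of all tested genes were called, 21.4% higher and 20.9% lower. Without PC replicate 2 the split was 10 higher and 16 lower. With plain library totals in place of TMM scaling it was 2 and 21, and all genes turned from 3665 higher and 3580 lower to 3039 and 4365. Among the 11656 genes at or above the level of the lowest gene of the list in NC, a restriction chosen after the data were seen, 54.7% were called. The median log2 fold change of the list was -0.08, against -0.01 for all genes tested, while the median absolute change was smaller than that of all genes, 0.14 against 0.21. Both medians over all genes include genes under the level of the list. These are bulk libraries, in which fewer cells with a transcript and less of it per cell cannot be told apart.

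The cargo receptor and the gene that supplies membrane were among the clearest. SQSTM1 was at 617 and 581 CPM in PC, 763 and 768 in NC, 679, 680 and 701 in RES, 748, 741 and 737 in POG, and 794 and 789 in DEG. Both PC libraries lay under all others, and the RES libraries under NC, POG and DEG. SQSTM1 was lower with serum by a log2 fold change of -0.35 ± 0.03 (SE, n = 2 and 2, FDR 3.91e-21). Its exons overlap those of MGAT4B over 105 bases and of MRNIP over 1582 bases on the other strand, and the strand setting of the counting is not given in the sources used here. MGAT4B had mean levels of 309 CPM in PC and 300 in NC, and MRNIP 35.1 and 38. Their part in the SQSTM1 counts was not tested.

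ATG9A encodes the membrane protein whose vesicles seed the autophagosome. It was at 142 CPM in both PC libraries, 178 and 187 in NC, 161, 165 and 161 in RES, 175, 176 and 178 in POG, and 188 and 181 in DEG. PC lay lowest and RES next, with no overlap between RES and the other serum-free groups. The serum difference was -0.36 ± 0.04 (FDR 1.72e-18). WIPI1, which binds the lipid PI3P on the growing membrane, was also lower with serum, at 47.1 ± 0.568 against 53.9 ± 1.21 CPM (SD, n = 2 and 2, log2 fold change -0.19, FDR 0.000596), whereas ATG2A, a lipid transfer protein, and WIPI2 did not pass the test.

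Of the glycosidases and the lipase, 4 of 6 were lower with serum. NEU1 was at 50.6 and 47.6 CPM in PC, 65.9 and 68.8 in NC, 78.1, 79.2 and 81.6 in RES, 71.3, 69.4 and 70.6 in POG, and 72.2 and 72.4 in DEG. The PC libraries were the lowest and the RES libraries the highest of the 12. The serum difference of -0.46 ± 0.05 (FDR 9.99e-20) was the largest in the list, a level 27.1% lower. LIPA, the acid lipase that hydrolyses cholesteryl esters and triglycerides in lysosomes, was at 24.7 and 22.7 CPM in PC, 27.9 and 30.7 in NC, 37.5, 37.0 and 34.0 in RES, 27.6, 28.0 and 27.0 in POG, and 26.8 and 26 in DEG. Again PC was lowest and RES highest, while POG reached into the range of NC. LIPA was lower with serum by -0.31 ± 0.07 (FDR 2.55e-05). HEXA (-0.24) and GLB1 (-0.17), which cleave sugars from gangliosides, were lower as well, and GLA and GAA did not pass the test.

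LIPA needs a caution that holds for each of its comparisons. Its exons overlap those of IFIT2 over 65 bases and of IFIT3 over 94 bases on the other strand, and these interferon-induced genes had more reads than LIPA, 358% and 640% of its total. IFIT2 had mean levels of 94.1 CPM in PC, 124 in NC, 152 in RES, 68.9 in POG and 76.8 in DEG, and IFIT3 of 200, 200, 236, 147 and 144. They were highest in RES, as was LIPA. Their part in the LIPA counts was not tested.

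Of the MiT/TFE factors, TFEB and TFE3 were lower with serum. TFEB was at 17.7 and 15.2 CPM in PC, 20.5 and 22 in NC, 18.8, 18.9 and 19.0 in RES, 17.9, 17.6 and 18.7 in POG, and 17.5 and 16.2 in DEG. NC was above every other library, and PC and DEG overlapped. The serum difference was -0.37 ± 0.08 (FDR 9.52e-06). TFE3, at 150 CPM in both PC libraries and 160 and 163 in NC, was lower by -0.11 ± 0.04 (FDR 0.0218). It was at 155, 156 and 155 CPM in RES, 148, 158 and 151 in POG, and 159 and 165 in DEG, so NC and DEG overlapped. MITF was at 4.29 and 3.65 CPM in PC and 3.05 and 3.67 in NC, which overlap, and did not pass the test (0.24 ± 0.16, 95% confidence interval -0.07 to 0.56, FDR 0.218).

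The autophagy initiation genes were lower with serum for 4 of 5. ULK2, a kinase that starts autophagy with its relative ULK1, is given in full although chosen after its values were seen. It was at 53.5 and 58.6 CPM in PC, 63.7 and 69.1 in NC, 67.1, 66.7 and 65.6 in RES, 76.7, 80.1 and 76.2 in POG, and 76.5 and 74.8 in DEG. PC was lowest, RES lay within the range of NC, and POG and DEG were above both. ULK2 was lower with serum by -0.25 ± 0.05 (FDR 1.09e-05), ATG14 by -0.19 ± 0.06, ULK1 by -0.15 ± 0.04 and ATG13 by -0.14 ± 0.04, and BECN1 did not pass (-0.02 ± 0.04). In contrast, the conjugation genes, which attach ATG8 proteins to lipid, included 2 of 5 that were higher with serum, ATG16L1 at 0.26 ± 0.06 (FDR 0.000132) and ATG7 at 0.13 ± 0.05 (FDR 0.0456), and none that was lower.

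The ATG8 family split with serum. MAP1LC3A was at 34.8 and 37.4 CPM in PC, 40.1 and 44.3 in NC, 41.8, 43.1 and 43.1 in RES, 45, 46.3 and 46.8 in POG, and 50.7 and 48.1 in DEG. The groups ascend from PC to DEG, with RES inside the range of NC. MAP1LC3A was lower with serum by -0.23 ± 0.06 (FDR 0.000361). GABARAPL1 was at 81.0 and 74.4 CPM in PC, 89.2 and 90.2 in NC, 87.7, 88.4 and 87.8 in RES, 89.5, 88.6 and 90.7 in POG, and 93.2 and 98.9 in DEG, and it was lower by -0.21 ± 0.04 (FDR 4.33e-05). PC lay lowest and DEG highest, and NC and POG overlapped. MAP1LC3B was higher instead (0.14 ± 0.04, FDR 0.00538), at 113 and 106 CPM in PC, 97.2 and 101 in NC, 109, 102 and 105 in RES, 103, 98.6 and 98.8 in POG, and 99.5 and 104 in DEG. Its near-copy MAP1LC3B2 had 0.470% as many reads. GABARAP and GABARAPL2 did not pass.

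In the lysosome itself, CTSL, a cysteine protease, was the only cathepsin called higher with serum when all libraries were used, at 223 ± 9.70 against 194 ± 1.23 CPM (SD, log2 fold change 0.20, FDR 1.55e-06). CTSD, the main aspartic protease, was lower (-0.18 ± 0.05), as was CTSK (-0.22 ± 0.09, FDR 0.0414), and CTSA, CTSB and CTSZ did not pass. LAMP2 (-0.12 ± 0.04) and the calcium channel MCOLN1 (-0.19 ± 0.07) were lower, and LAMP1 did not pass. ATP6V0D1, a subunit of the membrane sector of the V-ATPase, was lower by -0.13 ± 0.05 (FDR 0.0295), and ATP6V1A and ATP6V1H of its outer sector did not pass. Other called genes also overlap another gene. The reads of that gene were 592% of the called gene's own for MCOLN1 (PNPLA6), 157% for ATG14 (FBXO34), 119% for ATG7 (VGLL4) and 44.6% for MAP1LC3B (FBXO31). The part of the overlapping genes in those counts was not tested.

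Of the 24 serum calls, 13 remained in every alternative and with any library left out: CTSL, GLB1, HEXA, NEU1, LIPA, TFEB, ULK1, ULK2, ATG9A, WIPI1, ATG16L1, GABARAPL1 and SQSTM1. Leaving out NC replicate 2 lost ATG13, ATG7, ATP6V0D1, CTSK, LAMP2, MAP1LC3A, MCOLN1 and TFE3 (FDR 0.0643 to 0.228), NC replicate 1 lost ATG14, ATG7, ATP6V0D1, CTSK, MAP1LC3B and TFE3 (0.0508 to 0.185), PC replicate 1 lost ATG14, ATG7, CTSK and MCOLN1 (0.0547 to 0.439), and PC replicate 2 lost ATG13, ATP6V0D1, CTSD and CTSK (0.0551 to 0.232). Without PC replicate 2, ATG5, ATP6V1H, CTSA, CTSZ, GABARAP and WIPI2 were called higher in addition. With plain library totals, MAP1LC3B and ATG7 were lost (0.0614 and 0.209). With dispersions from the compared groups alone 17 genes were called, without ATG13, ATG7, ATP6V0D1, CTSK, LAMP2, MAP1LC3B and TFE3 (0.0753 to 0.187). Over all genes, 34.7% were called there, against 42.4% otherwise.

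**Figure D3:**
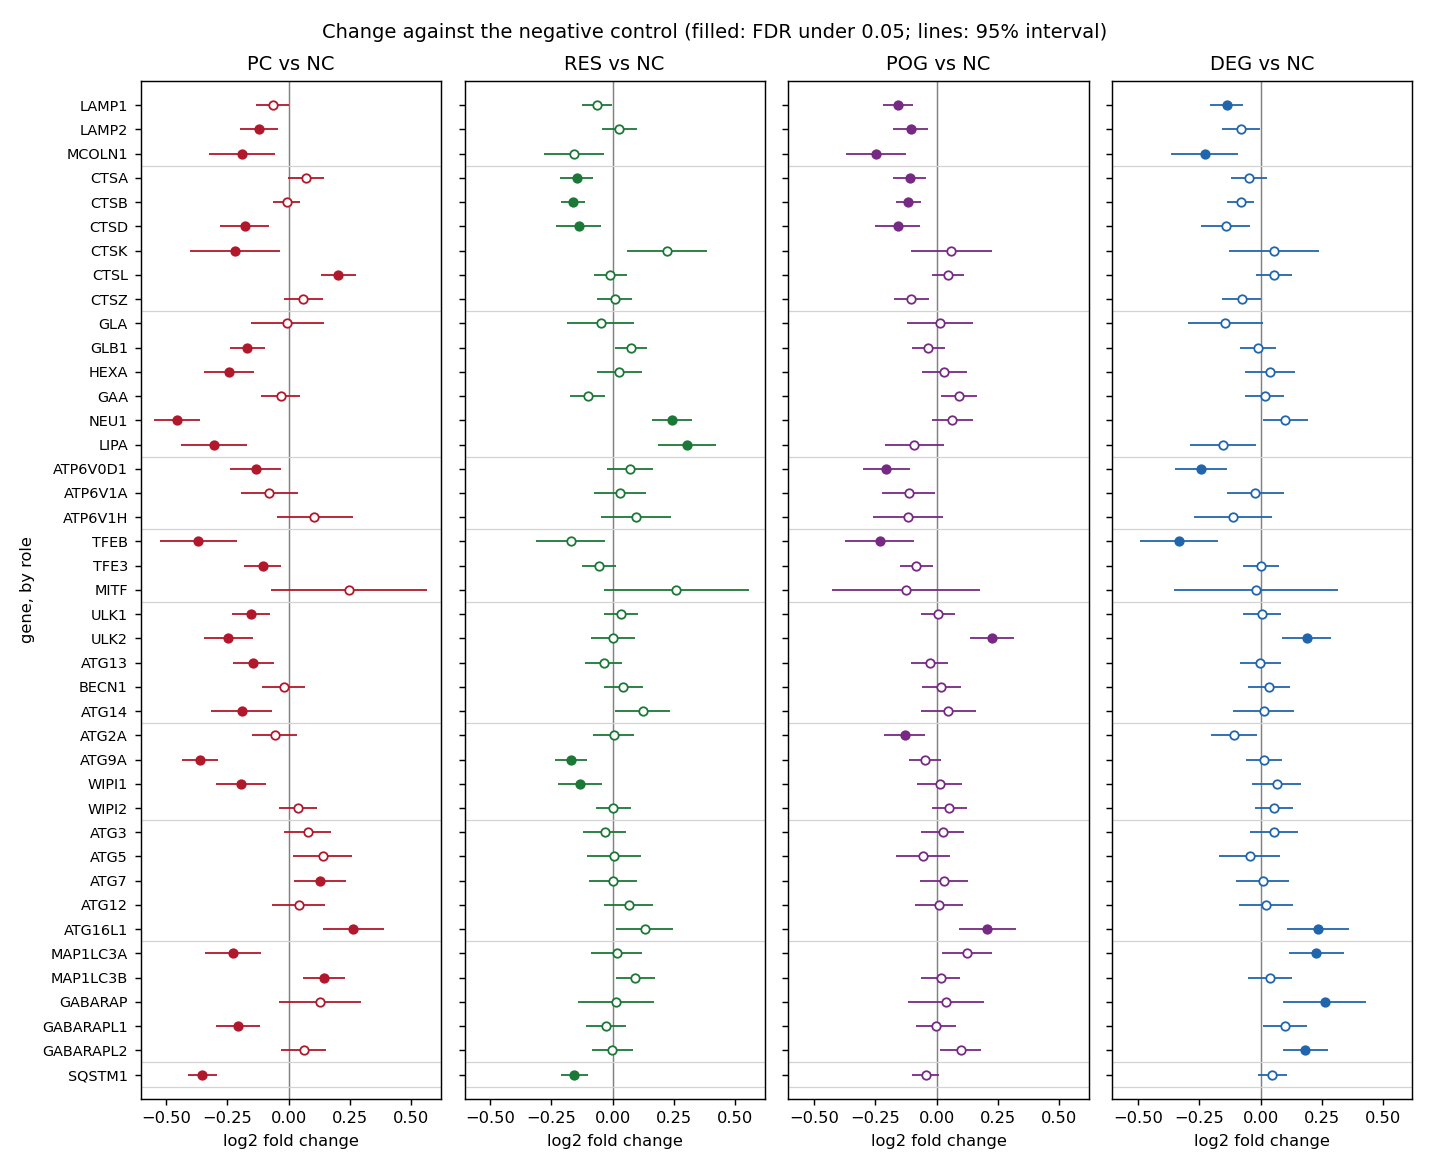
Log2 fold change of each of the 41 genes (rows, by role) against NC for PC, RES, POG and DEG (panels), with 95% confidence intervals as lines and genes with an FDR under 0.05 as filled points. The PC panel holds 24 filled points, 20 of them left of 0, and the compound panels hold 8, 11 and 9, of which TFEB with DEG (-0.33) lies farthest from 0.

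Resveratrol was compared with NC to ask what it changes in starved cells. NEU1 and LIPA were higher, by 0.24 ± 0.04 (FDR 1.11e-06) and 0.30 ± 0.06 (FDR 1.75e-05), where both had been lower with serum. Lower with resveratrol were SQSTM1 (-0.16 ± 0.03, FDR 6.83e-05), ATG9A (-0.17 ± 0.03, FDR 9.03e-05), WIPI1 (-0.13 ± 0.04, FDR 0.0423) and 3 cathepsins: CTSB, a cysteine protease, had a mean of 884 ± 10.8 CPM in RES against 989 ± 10.3 in NC (SD, n = 3 and 2, log2 fold change -0.16, FDR 1.21e-05), CTSA, which also protects NEU1 in a complex, from 188 to 170 CPM (-0.15 ± 0.03), and CTSD from 123 to 112 (-0.14 ± 0.04). In all 8 of 41 genes were called (19.5%), 2 higher and 6 lower, against 11.2% of all genes (4.94% higher and 6.21% lower) and 14.8% of those at the level of the list. With plain library totals 5 were higher and 4 lower, and CTSD and WIPI1 were lost (FDR 0.107 and 0.131). All genes then turned from 844 higher and 1062 lower to 1236 and 694. WIPI1 was also lost by the quasi-likelihood test (FDR 0.0553), by DESeq2 (0.0579) and without the low-count filter (0.121). CTSB, NEU1, LIPA and SQSTM1 remained in every alternative and with any library left out. Over all genes, 8.17% to 8.6% were called without 1 RES library, and fewer were also called without 1 NC library than with all libraries. WIPI1 was lost with any library left out (FDR 0.0641 to 0.371), CTSD without NC replicate 1 or 2 or RES replicate 1 or 2 (0.0533 to 0.219), and CTSA (0.172) and ATG9A (0.0813) without NC replicate 2.

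With peonidin-3-glucoside, genes of the lysosomal membrane and 1 of 3 subunits of the pump were lower. All 3 lysosomal membrane genes were called lower, LAMP1 with 366 ± 1.31 CPM against 409 ± 0.506 in NC (SD, n = 3 and 2, log2 fold change -0.16, FDR 0.000156), MCOLN1 from 27.9 to 23.6 CPM (-0.25 ± 0.06, FDR 0.00112) and LAMP2 from 130 to 121 (-0.11 ± 0.03, FDR 0.0409). PNPLA6, which overlaps MCOLN1, had a mean of 139 CPM in POG, 151 in DEG and 160 in NC. ATP6V0D1 was at 48.9, 49.4 and 50.2 CPM in POG against 56.6 and 57.4 in NC, with 52.6 and 51.3 in PC, 56.7, 59.0 and 64.1 in RES, and 47.9 and 48.4 in DEG. POG and DEG lay under every other library, and RES reached into the range of NC. ATP6V0D1 fell by 0.21 ± 0.05 on the log2 scale with POG (FDR 0.000507), while ATP6V1A and ATP6V1H did not pass, and of 15 further V-ATPase genes 1 was lower and none higher. CTSA, CTSB and CTSD fell by 0.11 to 0.16 on the log2 scale, and lower too were TFEB by -0.23 ± 0.07 (FDR 0.00995) and ATG2A by -0.13 ± 0.04. ULK2 (0.23 ± 0.04, FDR 2.79e-05) and ATG16L1 (0.21 ± 0.06, FDR 0.0044) were higher.

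Over the list, 11 of 41 genes were called with POG (26.8%), 2 higher and 9 lower, against 14.5% of all genes (5.93% higher and 8.57% lower) and 19.1% of those at the level of the list. With plain library totals 5 were higher and 6 lower, ATG2A, CTSA and LAMP2 were lost (FDR 0.0815 to 0.141), and all genes turned from 1014 higher and 1464 lower to 1498 and 1179. LAMP1, ATP6V0D1 and ULK2 remained in every alternative and with any library left out. Without NC replicate 2, ATG16L1, ATG2A, CTSA, CTSD, LAMP2, MCOLN1 and TFEB were lost (FDR 0.0655 to 0.42) and 5 genes were called, and without NC replicate 1, ATG2A, CTSB, CTSD and LAMP2 (0.084 to 0.208) and 7 were. POG replicate 1 decided CTSA and LAMP2 (0.106 and 0.11), POG replicate 2 CTSA, LAMP2 and TFEB (0.0524 to 0.126), and POG replicate 3 ATG2A and LAMP2 (0.089 and 0.202).

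DEG gave lower LAMP1 (-0.14 ± 0.03), MCOLN1 (-0.23 ± 0.07), ATP6V0D1 (-0.24 ± 0.05, FDR 0.000245) and TFEB (-0.33 ± 0.08, FDR 0.000696) than NC, and higher ULK2 (0.19 ± 0.05), ATG16L1 (0.23 ± 0.06) and 3 of the 5 ATG8 genes. Of these, MAP1LC3A was higher by 0.23 ± 0.05 (FDR 0.00151). GABARAPL2 was at 70.7 CPM in both DEG libraries against 61.0 and 63.5 in NC, with 65.6 and 64.3 in PC, 64.1, 61.0 and 61.6 in RES, and 67.4, 64.7 and 67.8 in POG. The DEG libraries lay above all others, and NC and RES overlapped. GABARAPL2 was higher by 0.18 ± 0.05 (FDR 0.00289). GABARAP was at 20.5 and 20.4 CPM in DEG, 16.8 and 17.3 in NC, 19.6 and 17.6 in PC, 17.5, 16 and 18.1 in RES, and 17.5, 19.0 and 16.1 in POG. Both DEG libraries again lay above all others, and the RES and POG libraries overlapped with those of NC. GABARAP was higher by 0.26 ± 0.08 (FDR 0.0234). The exact test called no cathepsin, glycosidase or lipase of the list with DEG. DESeq2 called CTSB lower, and dispersions from the compared groups alone gave CTSB, CTSD and CTSZ lower.

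In all, 9 of 41 genes were called with DEG (22%), 5 higher and 4 lower, against 9.63% of all genes (3.52% higher and 6.11% lower) and 13% of those at the level of the list. With plain library totals all genes turned from 602 higher and 1044 lower to 843 and 868. ATP6V0D1 alone remained with any library left out. Each such fit leaves 1 library in NC or DEG, and fewer of all tested genes were called as well. Without NC replicate 1 or without DEG replicate 1, GABARAP, GABARAPL2, LAMP1, MAP1LC3A, MCOLN1 and ULK2 were lost. Without NC replicate 2 or without DEG replicate 2, ATG16L1, GABARAP, LAMP1, MCOLN1 and TFEB were lost.

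**Figure D4:**
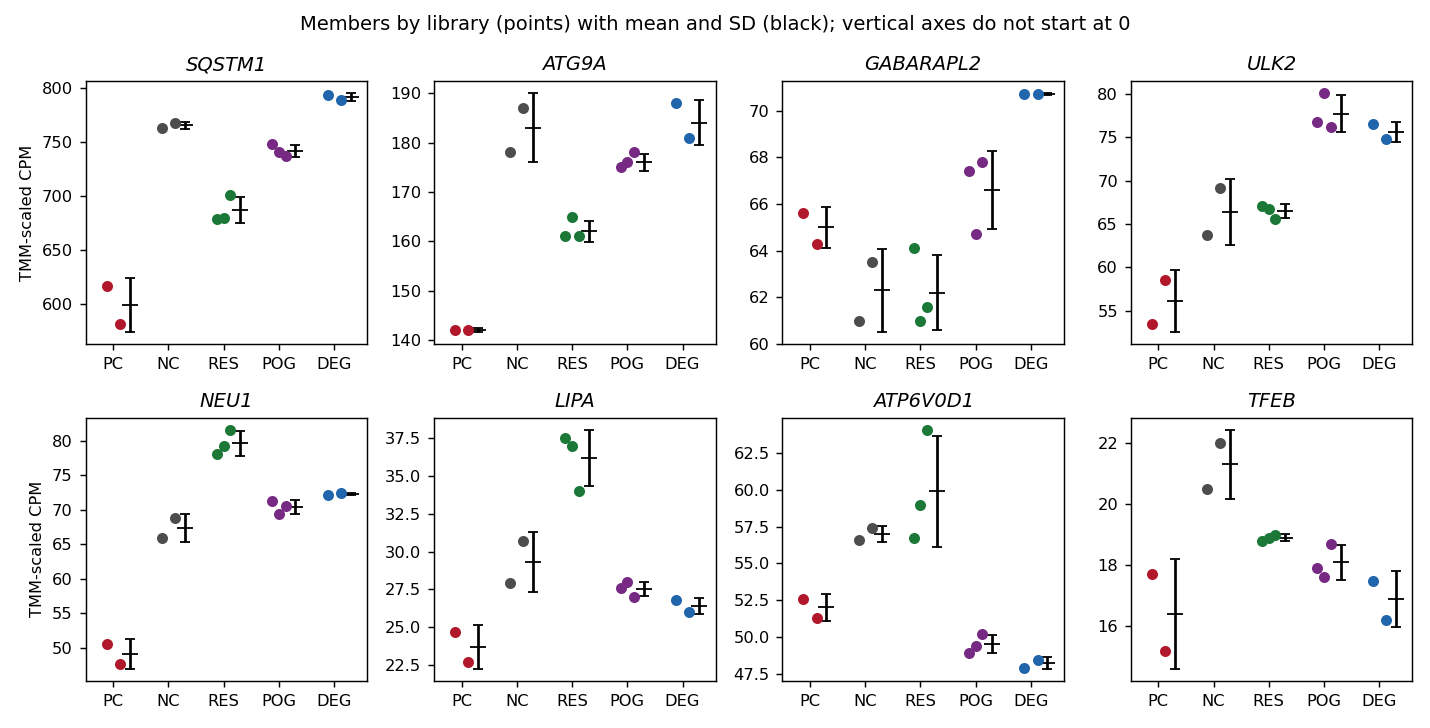
TMM-scaled CPM of 8 genes in each library (colored points) by group, with the mean and standard deviation in black beside them, on vertical axes that do not start at 0. SQSTM1, ATG9A, NEU1 and LIPA are lowest in PC, GABARAPL2 is highest in DEG (70.7 CPM in both libraries), and ATP6V0D1 is lowest in POG and DEG.

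The compounds share the NC libraries, so their changes against NC are set side by side and not counted as independent of each other. Genes called for more than 1 compound were counted in the list only. The share of all tested genes called in common was not counted, so these counts have no background. By the exact test no gene of the list was called for all 3 compounds, whereas DESeq2 called CTSB for all 3 and dispersions from the compared groups alone gave CTSB, CTSD and MCOLN1. The exact test called 6 genes for both POG and DEG: ATG16L1, ATP6V0D1, LAMP1, MCOLN1, TFEB and ULK2. Without NC replicate 1 these were 3, ATG16L1, ATP6V0D1 and TFEB, and without NC replicate 2 also 3, ATP6V0D1, MAP1LC3A and ULK2. The compounds were therefore also compared directly, at the same dose by mass (1 µg/mL), in 3 pairs with the FDR taken over all genes within a pair.

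Resveratrol, a stilbenoid, and peonidin-3-glucoside, an anthocyanin, differed in 17 of the 41 genes (41.5%), 6 higher and 11 lower with POG, against 27.9% of all genes (13.7% higher and 14.1% lower) and 36.0% of those at the level of the list. LIPA (-0.39 ± 0.05, FDR 1.89e-12), NEU1 (-0.18 ± 0.04, FDR 2.55e-05) and GLB1 (-0.11 ± 0.03) were lower with POG, and GAA, which degrades lysosomal glycogen, was higher, at 156 ± 1.29 CPM against 136 ± 3.71 (SD, n = 3 and 3, log2 fold change 0.19, FDR 2.37e-07). All 3 V-ATPase subunits of the list were lower, ATP6V0D1 by -0.28 ± 0.04 (FDR 3.43e-09), ATP6V1H by -0.21 ± 0.06 and ATP6V1A by -0.14 ± 0.05, while of 15 further V-ATPase genes 3 were higher and 2 lower. LAMP2 (-0.13), LAMP1 (-0.09), CTSZ (-0.11) and ATG2A (-0.13) were lower too. MITF was at 3.22, 2.97 and 3.06 CPM in POG and 3.97, 4.07 and 4.04 in RES, with 2.89 and 3.74 in DEG. The POG and RES libraries did not overlap, and MITF was lower with POG by -0.39 ± 0.13 (FDR 0.011).

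Higher with POG than with RES, besides GAA, were ULK2 (0.22 ± 0.04, FDR 5.53e-07), WIPI1 (0.15 ± 0.04), ATG9A (0.12 ± 0.03, FDR 0.00113), SQSTM1 (0.11 ± 0.02, FDR 0.000977) and GABARAPL2 (0.10 ± 0.04, FDR 0.0372). LAMP2, GLB1, GAA, NEU1, LIPA, ATP6V0D1, ULK2, ATG9A, WIPI1 and SQSTM1 remained in every alternative and with any library left out. With 1 library left out, 22.8% to 23.5% of all genes were called, against 27.9% with all libraries. GABARAPL2 was lost without RES replicate 2 or 3 or POG replicate 1 or 3 (FDR 0.125 to 0.158), LAMP1 without RES replicate 3 or POG replicate 1 or 3 (0.0529 to 0.0744), CTSZ and ATP6V1H without RES replicate 3 or POG replicate 1 (0.0599 to 0.0872), ATP6V1A without RES replicate 1 or POG replicate 3 (0.14 and 0.179), ATG2A without POG replicate 3 (0.0716) and MITF without POG replicate 2 (0.0549).

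DEG and RES also differed in 17 genes (41.5%), 11 higher and 6 lower with DEG, against 21.2% of all genes (10.3% higher and 10.8% lower) and 27.6% of those at the level of the list. SQSTM1 was higher by 0.20 ± 0.03 (FDR 1.57e-08), ATG9A by 0.18 ± 0.03 (FDR 6.2e-06), WIPI1 by 0.20 ± 0.04, ULK2 by 0.19 ± 0.04 and GAA by 0.12 ± 0.04. Of the ATG8 family 4 of 5 were higher with DEG: GABARAP by 0.25 ± 0.07, MAP1LC3A by 0.21 ± 0.05, GABARAPL2 by 0.18 ± 0.04 (FDR 0.000263) and GABARAPL1 by 0.13 ± 0.04. CTSA (0.10) and CTSB (0.08) were higher as well. Lower were LIPA (-0.45 ± 0.06, FDR 2.6e-12), ATP6V0D1 (-0.31 ± 0.05, FDR 6.57e-09), ATP6V1H (-0.21 ± 0.07), NEU1 (-0.14 ± 0.04), ATG2A (-0.11 ± 0.04) and LAMP2 (-0.11 ± 0.04).

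LIPA, ATP6V0D1, ULK2, ATG9A, GABARAPL2 and SQSTM1 remained in every alternative and with any library left out of the DEG and RES comparison. With plain library totals 9 genes were higher and 7 lower, and CTSA and CTSB were lost (FDR 0.0574 and 0.0798). ATG2A was lost by the quasi-likelihood test (0.0502), by DESeq2 (0.0627) and with its size factors (0.0505). The fit with no low-count filter lost ATG2A, CTSA, CTSB and LAMP2 (0.0642 to 0.181), and the filter at 1 CPM lost CTSB (0.0524). Without DEG replicate 1, ATG2A, ATP6V1H, CTSA, CTSB, GABARAP, LAMP2, MAP1LC3A, NEU1 and WIPI1 were lost. Without DEG replicate 2, ATG2A, CTSA, CTSB, GAA, GABARAP, GABARAPL1 and NEU1 were lost. Each of these 2 fits leaves 1 DEG library, and fewer of all tested genes were called as well. With 1 RES library left out, 17.7% to 18.0% of all genes were called. Lost were CTSA, CTSB, GAA and LAMP2 without RES replicate 1 (FDR 0.0701 to 0.157), ATG2A, CTSB and GABARAP without RES replicate 2 (0.0697 to 0.179), and ATG2A, ATP6V1H, CTSA, CTSB and NEU1 without RES replicate 3 (0.0527 to 0.177).

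Between DEG and POG no gene of the list was called by edgeR's exact test, its quasi-likelihood test or DESeq2, where the exact test called 1.05% of all genes (0.55% higher and 0.497% lower). At an unadjusted p under 0.05 there were 8 of 41 genes, against 10.7% of all genes. The 95% confidence intervals of the 41 differences reached from -0.30 (GLA) to 0.41 (MITF), so the test does not show that the compounds act alike. With dispersions estimated from these 2 groups alone, TFE3, GABARAP, GABARAPL1 and SQSTM1 passed.

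The serum comparison and the comparison of POG with RES share no library, so the list can be followed from one to the other. Scaling and dispersions came from all 12 libraries for both, so the calls are not fully separate. Called in both were 9 genes. ATP6V0D1, GLB1, LAMP2, LIPA and NEU1 were lower with serum and lower with POG than with RES, whereas ATG9A, SQSTM1, ULK2 and WIPI1 were lower with serum and higher with POG than with RES. The signs of the 2 differences were the same in 24 of 41 genes (58.5%), against 47.9% of all genes tested. Of the 2752 genes called in both over the whole table, 43.3% had the same sign. For DEG against RES in place of POG, 10 genes of the list were called in both, ATP6V0D1, LAMP2, LIPA and NEU1 with the same sign and ATG9A, GABARAPL1, MAP1LC3A, SQSTM1, ULK2 and WIPI1 with the opposite one, against 44.1% with the same sign over all 2108 such genes. The RES libraries are in both of these compound comparisons.

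**Figure D5:**
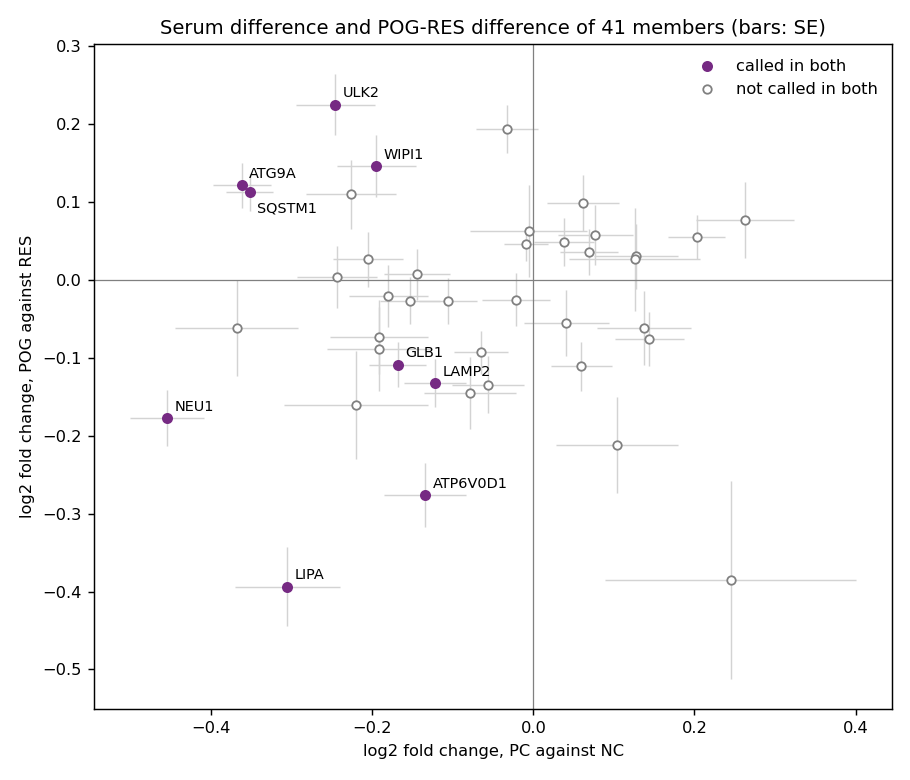
Log2 fold change of each of the 41 genes for PC against NC (horizontal) and for POG against RES (vertical), with SE bars, where the 9 genes called in both are filled and named. LIPA, NEU1, ATP6V0D1, GLB1 and LAMP2 lie lower left, and ULK2, WIPI1, ATG9A and SQSTM1 upper left.

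To see whether related genes moved, 131 further lysosome and autophagy genes in 7 lists were counted. With serum 26 were higher and 52 lower, or 59.5% called, near the 54.7% of all genes at the level of the 41 and above the 42.4% of all tested. Lower were 18 of 33 further hydrolases and cofactors, with 3 higher, such as HGSNAT, which acetylates heparan sulfate for its breakdown (116 CPM in NC and 80.8 in PC, log2 fold change -0.53 ± 0.04, FDR 9.62e-29), and the cathepsin gene CTSO (-0.55 ± 0.08). Of 21 further membrane proteins and sorting receptors 13 were lower and 1 higher, led by IGF2R, the mannose 6-phosphate receptor that delivers hydrolases to lysosomes (592 and 406 CPM, -0.55 ± 0.04, FDR 8.95e-28). Of 15 further V-ATPase genes 5 were lower, among them ATP6AP1 (-0.45 ± 0.04) and TCIRG1 (-0.33 ± 0.04), and 3 higher, with ATP6V0E2 at 0.69 ± 0.08 (FDR 7.33e-16). Autophagosome genes were divided, 8 of 24 higher and 6 lower, as were cargo receptors, 3 of 13 higher and 4 lower, with the mitophagy receptor BNIP3, which has 44 named pseudogenes, higher by 0.55 ± 0.05 (57.7 CPM in NC and 84.2 in PC).

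Against NC, 10 of the 131 genes were higher and 10 lower with RES, 3 higher and 19 lower with POG, and 3 higher and 17 lower with DEG. The called shares were 15.3%, 16.8% and 15.3%, near those of all genes at the level of the 41 (14.8%, 19.1% and 13%). With 1 library left out the calls numbered from 7 to 15 with RES, 11 to 18 with POG and 6 to 9 with DEG. CTSS, a cathepsin, was higher with RES (23.2 to 29.2 CPM, 0.33 ± 0.06, FDR 1.32e-05), and the endolysosomal cation channel TPCN1 was lower (-0.27 ± 0.03, FDR 2.59e-13). CTNS, the cystine exporter of lysosomes, was lower with POG (24.1 to 18.3 CPM, -0.39 ± 0.07, FDR 1.84e-06) and with DEG (19.4 CPM, -0.31 ± 0.08, FDR 0.0026), and WDR45, a relative of WIPI1, was lower with POG (-0.25 ± 0.05) and DEG (-0.18 ± 0.05). Between compounds, 17 were higher and 29 lower with POG than with RES, and 13 higher and 21 lower with DEG than with RES. These were 35.1% and 26% of the genes, against 36% and 27.6% of all genes at the level of the 41. CTSS was lower than with RES under POG (-0.48 ± 0.06) and DEG (-0.59 ± 0.06), as was the ferritin receptor NCOA4 (-0.23 ± 0.03 and -0.25 ± 0.04). Between DEG and POG, the cholesterol exporter NPC1 was higher with DEG by 0.12 ± 0.03 and GALC, which degrades galactosylceramide, lower by -0.28 ± 0.08, with FDRs of 0.0334 and 0.033. Neither was called with any 1 library left out or without the low-count filter.

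By promoter, counts are small. Of the 9 genes with TCACGTG, 5 were lower and none higher with serum, where 20.9% of all genes were lower. The same count was 5 with POG (8.57% of all genes lower) and 3 with DEG (6.11%), and with RES 2 were lower and 1 higher (6.21% and 4.94%). Of the 25 genes with a promoter but without these letters, 11 were lower and 4 higher with serum, 2 and 2 with POG, 1 and 4 with DEG, and 3 and 1 with RES. The 7 genes with no promoter in the table had 4 lower with serum, 2 with POG and 1 with RES, and 1 higher with DEG. With 1 library left out, the lower genes among the 9 numbered from 3 to 4 with serum, with 1 higher without PC replicate 2. They numbered 2 with POG without NC replicate 2, 1 with DEG whichever library was left out, and 0 with RES without NC replicate 2. The compound comparisons rest on the same NC libraries.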

How the data were processed

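Per the labels, polyA-selected RNA was sequenced on a NovaSeq. The values deposited by the authors are whole read counts by gene in 1 table, without normalization, made per their methods from reads aligned to hg38 with STAR (BWA MEM was also named) and counted on Ensembl genes with featureCounts. Program versions, annotation release, strand setting and the treatment of multi-mapped reads are not given in the sources used here. Of 13 labelled samples, 12 had a column. Symbols were looked up by Ensembl identifier for 43177 genes. The 41 genes, the wider lists and the rule for genes shown by library were chosen with earlier results of these data known.

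The counts were tested with edgeR 4.0.16 in R 4.3.3 by the exact test that the study names, after filterByExpr by group and TMM scaling, with dispersions from all 12 libraries (common biological coefficient of variation 3.21%) and Benjamini-Hochberg adjustment over 17092 genes, which held 99.967% of the reads. SE and 95% confidence intervals came from the quasi-likelihood fit. A gene was called at an FDR under 0.05. The 7 comparisons were each other group against NC and the 3 compound pairs. Shown by library were genes called with an absolute log2 fold change of at least 0.3 and 1 CPM or more on average in a group, the MiT/TFE factors and the ATG8 family. From the wider lists, the largest changes each way among called genes at 1 CPM were named. Replicates were numbered in accession order and only name libraries. Lengths, positions and overlaps came from GENCODE 44, an hg38 annotation. The test was tested on simulated data for PC and RES against NC, where unchanged genes made up more of the calls than the FDR threshold allows, so printed FDRs may be too small. Alternatives were the quasi-likelihood test, DESeq2 1.42.0, its size factors, plain library totals, no low-count filter, a filter at 1 CPM on average, dispersions from the compared groups alone, and leaving out each library.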

Additional observations from a re-analysis of the deposited data

How the results depend on the processing

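No call, with all libraries or under an alternative, came with a change of sign. Of all 3403 values under an alternative, 124 changed sign around 0, and these were called in neither setting. Over the 41 genes and 7 comparisons, 1269 of 1394 values with 1 library left out kept their side of the threshold, as did 1932 of 2009 values under the 7 other alternatives. With dispersions from the compared groups alone, 17 of the 41 genes were called for POG against NC (11 otherwise), 14 for DEG against NC (9) and 4 for DEG against POG (0), and of the wider lists 35 for POG against NC (22) and 10 for DEG against POG (2), but for PC against NC 17 (24) and 58 of the wider lists (78). The share called over all genes moved the same way. It was 21.2% for POG against NC (14.5% otherwise), 15.1% for DEG against NC (9.63%), 4.9% for DEG against POG (1.05%) and 34.7% for PC against NC (42.4%). Without the low-count filter 13 of the wider lists were called for DEG against NC (20) and 0 for DEG against POG, and 1 was called there by the quasi-likelihood test and 1 with plain library totals. Over all genes these settings also called fewer. Without the filter, 1313 were called for DEG against NC (1646 otherwise). For DEG against POG it was 116 without the filter, 103 by the quasi-likelihood test and 160 with plain library totals (179). The cause was not tested.

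With 1 library left out, calls among the 41 genes ranged from 16 to 26 for PC against NC (24 with all libraries), 4 to 7 for RES (8, with 4 without NC replicate 2), 5 to 9 for POG (11), 3 to 4 for DEG (9), 13 to 16 for POG against RES (17), 8 to 14 for DEG against RES (17) and 0 to 0 for DEG against POG. Among the wider lists they ranged from 59 to 79 (78), 7 to 15 (20), 11 to 18 (22), 6 to 9 (20), 33 to 35 (46), 14 to 25 (34) and 0 to 0 (2). Over all tested genes, fewer were called as well with 1 library left out, except for PC against NC without PC replicate 2. Leaving out a library of PC, NC or DEG leaves 1 in that group. No paired analysis was possible because the labels give no replicate numbers. The lowest level in NC was 3.36 CPM, for MITF, whose differences had the widest errors, and PC, NC and DEG hold 2 libraries each.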

Other observations

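The regulators of mTORC1 at the lysosome, a kinase complex that restrains autophagy and TFEB when nutrients are plentiful, were 1 of the wider lists. With serum 8 of the 23 tested were higher and 6 lower, or 60.9% called against 54.7% of all genes at the level of the 41 genes, with a median log2 fold change of 0.03. FLCN, which controls the RagC and RagD GTPases, was lower with serum (56.0 CPM in NC and 40.2 in PC, -0.48 ± 0.05, FDR 3.24e-19), as was the stress-induced inhibitor SESN1 (14 and 10.3 CPM, -0.44 ± 0.08, FDR 1.42e-06). LAMTOR2, a subunit of the Ragulator scaffold, was higher (24.9 and 31.1 CPM, 0.32 ± 0.06, FDR 8.22e-07), and so was TBC1D7, a subunit of the TSC complex (10.0 and 12.8 CPM, 0.36 ± 0.09, FDR 0.000676). Against NC, 2 of the 23 were higher with RES, FNIP2 and LAMTOR2, and 1 was lower with POG, FLCN. These were 8.7% and 4.35% of the 23, against 11.2% and 14.5% of all genes. None was called with DEG by edgeR's exact test, which called 9.63% of all genes. At an unadjusted p under 0.05 in that test there were 6 of the 23 with DEG, against 20.7% of all genes. RRAGC was lower with DEG than with RES (10.3 and 7.61 CPM, -0.44 ± 0.09, FDR 6.51e-05).

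The cystatins, which inhibit cysteine cathepsins, were represented by CSTB and CST3, the 2 of 4 that passed the filter. Neither was called with serum or with a compound against NC. CSTB was lower than with RES under POG (89.8 and 83.4 CPM, -0.11 ± 0.03, FDR 0.0141) and DEG (83.5 CPM, -0.10 ± 0.04, FDR 0.0491).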
